A study of Caenorhabditis elegans with 2 samples.

Results

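The genes described here are placed among those that make, store, break down and carry fat in *C. elegans*. They are the rows of the deposited gene table whose symbol belongs to the *fat*, *elo*, *lipl*, *lips*, *fil* or *lbp* families, or is 1 of *pod-2*, *fasn-1*, *sbp-1*, *let-767*, *dgat-2*, *atgl-1*, *hosl-1*, *lid-1*, *plin-1* and *seip-1*. The rule takes 58 of 18510 genes and uses no measured value. By role, 20 were placed in fatty acid synthesis, 3 in storage, 27 in breakdown and 8 in fatty acid binding. Roles follow gene family and name. Whether the 16 *lips* and *fil* genes placed in breakdown act on stored fat was not tested. Of the symbols listed for these families, *lbp-1*, *lips-4*, *lips-14* and *lips-16* were not analysed here. The RNA came from whole wild-type N2 nematodes, the standard laboratory strain, grown with *E. coli* as food. The paper's RNA methods name neither the medium nor FUDR, an additive of its liquid life span cultures. The AbaPep#07 library is from nematodes given 2 mM of the abalone peptide from L4, the last larval stage, and the Control library from untreated nematodes. Nematodes were collected on Day 10 of adulthood in either case, and both groups hold 1 library, so no difference below has a replicate check. In whole animals, fewer cells of a tissue and less RNA per cell cannot be told apart.

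In nematodes fat is made and kept mainly in the intestine and the hypodermis, which take the part of liver and fat tissue. Acetyl-CoA is carboxylated and built into palmitate, elongases lengthen the chain, and desaturases add double bonds, ending in polyunsaturated fatty acids that *C. elegans* can make without dietary supply. Fatty acids are stored as triglyceride in lipid droplets, released by lipases on the droplet or in the lysosome, and carried by small binding proteins.

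The reads summed to 19241145 in the AbaPep#07 library and to 19409907 in the Control library. Levels are given in TPM, which scales reads by transcript length so that genes can be compared, and differences as ratios of AbaPep#07 to Control. Beside a read ratio stands its 95% interval, computed exactly from how a gene's reads split between the libraries. It covers counting error only, and the error between cultures is not measured. All 8 intestine markers searched had at least 20 reads in both libraries together, and 3 of them were higher and 1 lower by the test described below, from the intestinal actin gene *act-5*, at 244 TPM in AbaPep#07 and 108 TPM in Control (FPKM ratio 2.17), to *vha-6*, at 99.8 and 117 TPM (0.819). Their summed level was 553 TPM in AbaPep#07 and 417.5 TPM in Control. In this sum *act-5* carried the difference, since the other 7 summed to 309.6 TPM in both libraries. That equal sum hid differences in both directions. *elt-2* was higher at a read ratio of 1.61 (1.37 to 1.89) and *ges-1* at 1.25 (1.15 to 1.36). The more abundant *vha-6* was lower at 0.822 (0.793 to 0.853), and the remaining 4 markers did not pass the test. The 4 germline markers were all lower, with a summed level of 332 TPM in AbaPep#07 and 424 TPM in Control, and 1 of 6 early embryo markers reached 20 reads. Of 4 body wall muscle markers 3 were lower, of 4 neuron markers 2, and of 5 sperm markers 1, while of 5 moulting markers 2 were higher and 1 lower. The part of tissue content in the values below was not tested.

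Together the 58 genes took 0.763% of all TPM in each library, and this total was almost the same on both sides, at 7626 TPM in AbaPep#07 and 7630 TPM in Control. Synthesis genes held most of it. Their levels summed to 4523 TPM in AbaPep#07 and 4633 TPM in Control, a ratio of 0.976. Storage genes summed to 276 and 314 TPM (0.879), breakdown genes to 988 and 934 TPM (1.06), and binding genes to 1839 and 1749 TPM (1.05). Storage was thus the role with the lowest ratio. The unit shifts these sums. FPKM, which is not rescaled to 1 total per library, gives 0.937, 0.843, 1.01 and 1.01 for synthesis, storage, breakdown and binding, and 0.960 for the sum over all genes of the table. A few genes set each sum, with *fat-6* at 34.4% of the synthesis TPM in AbaPep#07 and 40.1% in Control, *plin-1* at 78.5% and 78.7% of storage, and *lipl-2* at 33.3% and 32.9% of breakdown. As a level, 17 of the genes were at 100 TPM or more in both libraries, while 11 were under 1 TPM in both.

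**Figure D1:**
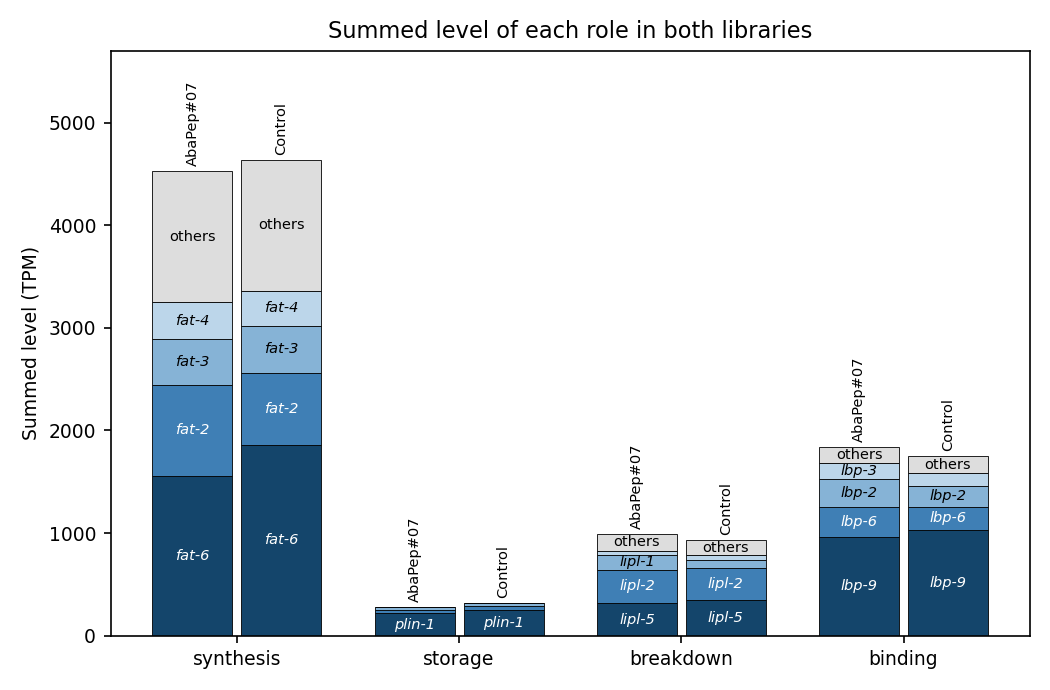
Summed level in TPM (vertical axis, from 0) of the genes of each role, with the AbaPep#07 bar left of the Control bar and the 4 most abundant genes of a role as blocks, named where they are large enough. Each bar is 1 library without an error. The synthesis bars stand at 4523 and 4633 TPM, and *fat-6* is the largest block.

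The test named in the study's methods, PossionDis, asks whether the reads of a gene differ between the libraries by more than Poisson sampling allows, so that it compares the libraries and not the conditions. At an FDR of 0.05 or less over all genes, together with a 2-fold difference in FPKM, 0 of the 58 genes were higher and 3 were lower with AbaPep#07. Over all genes 3.53% passed, 2.1% as higher and 1.43% as lower. The lower genes were *fat-7*, *lips-3* and *lips-6*, all under 100 reads. By the ratio of TPM in place of FPKM, *lips-5* also passed, as higher (2.01). By the FDR alone, 13 of the genes were higher and 19 lower, where over all genes 25.5% passed, 13.1% as higher and 12.4% as lower. Of these 32 genes, 24 differed by less than 1.5-fold. Of the 30 genes with at least 1000 reads, 26 passed the FDR (86.7%), against 48.4% of all genes with that many reads. The median read count of these 30 was 5847.5 and that of all such genes 2650.5, so the 2 shares were not compared at equal depth. Between 1.5-fold and 2-fold, 5 genes passed the FDR, and all 5 were higher with AbaPep#07: *fasn-1*, *elo-2*, *lipl-1*, *lips-5* and *lips-17*. With the 3 lower genes this makes 8 genes past the FDR and 1.5-fold, against 7.65% of all genes, 4.94% as higher and 2.71% as lower. Of the 30 genes with at least 1000 reads 3 were past both, against 4.78% of all genes of that depth. The calls depend on the error between cultures, which was not measured. With edgeR's exact test and a coefficient of variation set to 0.1, 3 of the 58 genes passed the FDR (*fasn-1*, *lipl-1* and *fat-7*), and with 0.2 none did, where 3.23% and 0.486% of all genes passed.

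**Figure D2:**
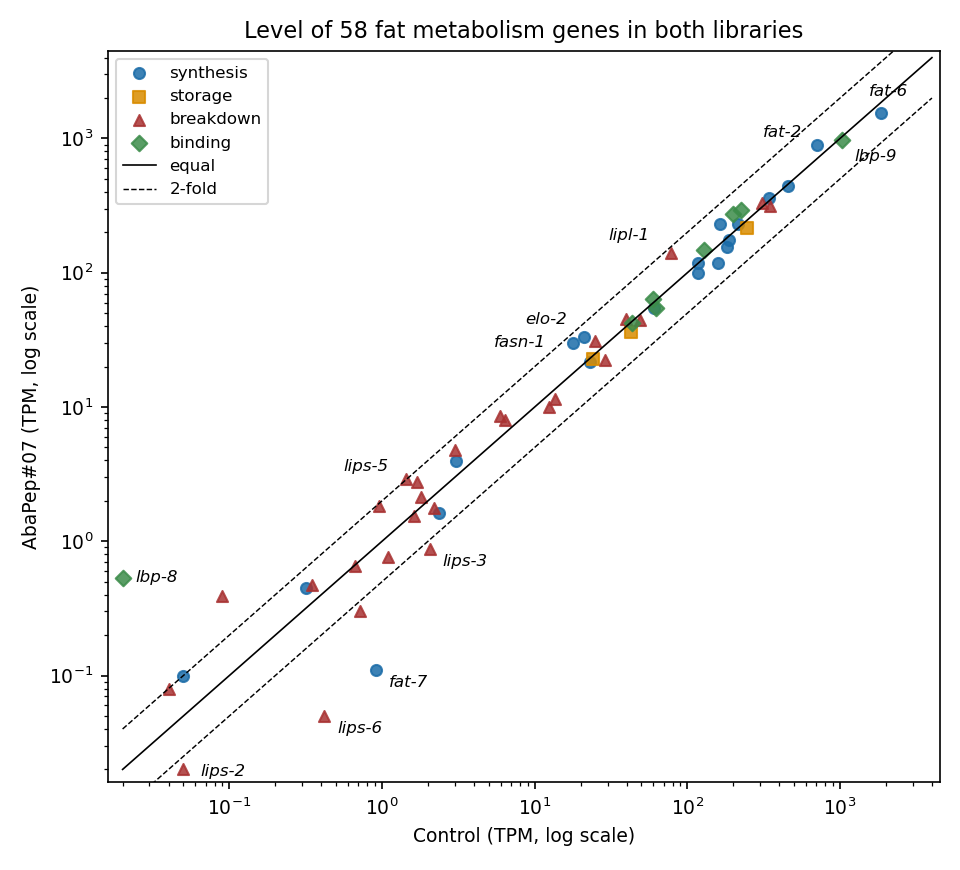
Level in TPM of each of the 58 genes in Control (horizontal axis, log scale) and in AbaPep#07 (vertical axis, log scale), 1 point per gene with the role as colour and shape. The solid line marks equal levels and the dashed lines a 2-fold difference, and a level of 0 is drawn at 0.02. Genes above 10 TPM lie between the dashed lines, and *fat-7*, at 0.11 TPM in AbaPep#07 and 0.92 TPM in Control, lies below them.

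The first steps of fatty acid synthesis went in opposite directions. The acetyl-CoA carboxylase gene *pod-2* (WBcel235 chromosome II, 1136785 to 1152701), whose product makes malonyl-CoA, had 14712 reads and 99.1 TPM in AbaPep#07, against 18246 reads and 117 TPM in Control. It was lower at a read ratio of 0.813 (0.796 to 0.831). The fatty acid synthase gene *fasn-1* (chromosome I, 8975366 to 8986540), whose product uses malonyl-CoA to build palmitate, had 5448 reads and 29.9 TPM in AbaPep#07, against 3431 reads and 17.9 TPM in Control. It was higher at a ratio of 1.60 (1.53 to 1.67). The ratio of *fasn-1* was 1.97 times that of *pod-2*, with a counting interval of 1.88 to 2.07. Like all gene pairs compared below, this pair was chosen after values had been seen. *sbp-1*, the nematode homologue of the SREBP regulators of lipid synthesis, had 1503 reads in AbaPep#07 and 1668 in Control (0.909, 0.847 to 0.975).

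Among the elongases, *elo-2* stood apart from the other abundant members. This gene (chromosome IV, 17466065 to 17467408) encodes the enzyme that lengthens palmitate to stearate. It had 741 reads and 33.5 TPM in AbaPep#07 and 485 reads and 21.1 TPM in Control, a read ratio of 1.54 (1.37 to 1.73). By contrast *elo-1*, which lengthens polyunsaturated chains, was lower, at 176 TPM in AbaPep#07 and 188 TPM in Control (0.909, 0.866 to 0.954). The ratio of *elo-2* was 1.70 times that of *elo-1* (1.49 to 1.92). *elo-3* was also lower, at 54.9 and 60.5 TPM (0.878, 0.820 to 0.940).

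*elo-5* and *elo-6* both make the branched-chain fatty acids of nematodes, and the pair lies within 15 kb on chromosome IV. They differed. *elo-5* (chromosome IV, 5374616 to 5377117) had 2073 reads and 118.6 TPM in AbaPep#07, against 2857 reads and 158 TPM in Control, a read ratio of 0.732 (0.691 to 0.775). *elo-6* had 2065 and 2118 reads, and 119.1 TPM in AbaPep#07 against 117.8 TPM in Control, a read ratio of 0.984 (0.925 to 1.05) that did not pass the FDR. The ratio of *elo-5* was 0.744 times that of *elo-6* (0.684 to 0.809). The exons of *elo-5* share 162 bases with F41H10.3 on the other strand, and its Control read count is not a whole number, as the estimate gives where reads are shared between genes. F41H10.3 had 2235 reads in AbaPep#07 and 2260 in Control. In all, 16 of the 58 genes share exon bases with another annotated gene, and reads of both partners cannot be told apart where counting does not use strand. The 4 elongase genes of lowest level, *elo-4*, *elo-7*, *elo-8* and *elo-9*, had 2 to 79 reads in AbaPep#07 and 1 to 63 in Control, and none of them passed the FDR.

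*let-767* (chromosome III, 6338509 to 6339955) encodes the 3-ketoacyl-CoA reductase of the elongation cycle, a step that the elongases share. It had 4161 reads and 231 TPM in AbaPep#07, against 3141 reads and 164 TPM in Control, a ratio of 1.34 (1.28 to 1.40). The genes of the remaining steps of the cycle are no part of the families above and were named after their values were seen. *hpo-8*, a hydroxyacyl-CoA dehydratase homologue, had 2051 reads in AbaPep#07 and 1471 in Control (1.41, 1.31 to 1.505). *art-1*, an enoyl-CoA reductase homologue, had 1938 and 1527 reads (1.28, 1.197 to 1.37). *let-767*, *hpo-8* and *art-1* were all higher, while 3 of the elongase genes, *elo-1*, *elo-3* and *elo-5*, were lower. Among the elongase genes *elo-2* alone passed the FDR as higher. Other homologues of the 3 steps were not compared.

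The Δ9 desaturases, which place the first double bond, were all lower. *fat-6* (chromosome IV, 11913692 to 11915687), a stearoyl-CoA desaturase gene and the most abundant of all 58 genes by TPM, had 31861 reads and 1557 TPM in AbaPep#07, against 39492 reads and 1856 TPM in Control, a read ratio of 0.814 (0.802 to 0.826). *fat-5* (chromosome V, 17725004 to 17726818), whose product acts on palmitate, was at 156 TPM in AbaPep#07 and 182 TPM in Control, a ratio of 0.831 (0.790 to 0.873). The ratio of *fat-6* was 0.980 times that of *fat-5*, with an interval of 0.930 to 1.03 that includes 1. *fat-7* (chromosome V, 7151353 to 7153146), the close homologue of *fat-6*, had 2 reads and 0.11 TPM in AbaPep#07, against 18 reads and 0.92 TPM in Control, a ratio of 0.112 (0.0126 to 0.468). Relative to *fat-6* this was 0.138 (0.0155 to 0.575), so the counting interval of the 2 homologues does not include 1, yet *fat-7* gave only 0.00642% of Δ9 desaturase TPM in AbaPep#07 and 0.0451% in Control. Summed over the 3 genes, the level was 1713 TPM in AbaPep#07 and 2039 TPM in Control. The reads of all 3 were whole numbers in both libraries.

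Of the 4 desaturases that make polyunsaturated fatty acids, 1 was higher, 1 was lower and 2 did not pass the FDR. *fat-2* (chromosome IV, 13323873 to 13326395), the Δ12 desaturase gene that leads into this branch, was at 890 TPM in AbaPep#07 and 705 TPM in Control. Its ratio was 1.13 by reads (1.11 to 1.16) and 1.21 by FPKM. *fat-3*, the Δ6 desaturase gene, was at 441 and 459 TPM, a read ratio of 0.930 (0.907 to 0.953). Neither *fat-4* (Δ5) nor *fat-1* (omega-3) passed the FDR. They had 9568 and 5817 reads in AbaPep#07, against 9666 and 5652 in Control, and read ratios of 0.999 (0.971 to 1.03) and 1.04 (1.001 to 1.08). *fat-4* was the only gene with at least 20 reads whose FPKM and read ratios lay on different sides of 1. *fat-2* relative to *fat-6* had a ratio of 1.39 (1.35 to 1.43). *fat-3* and *fat-4* are neighbours on chromosome IV, 802 bases apart on the same strand, and *fat-1* and *fat-2* are 5062 bases apart. The ratio of *fat-3* was 0.931 times that of *fat-4* (0.897 to 0.967), and the ratio of *fat-2* was 1.09 times that of *fat-1* (1.04 to 1.14).

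**Figure D3:**
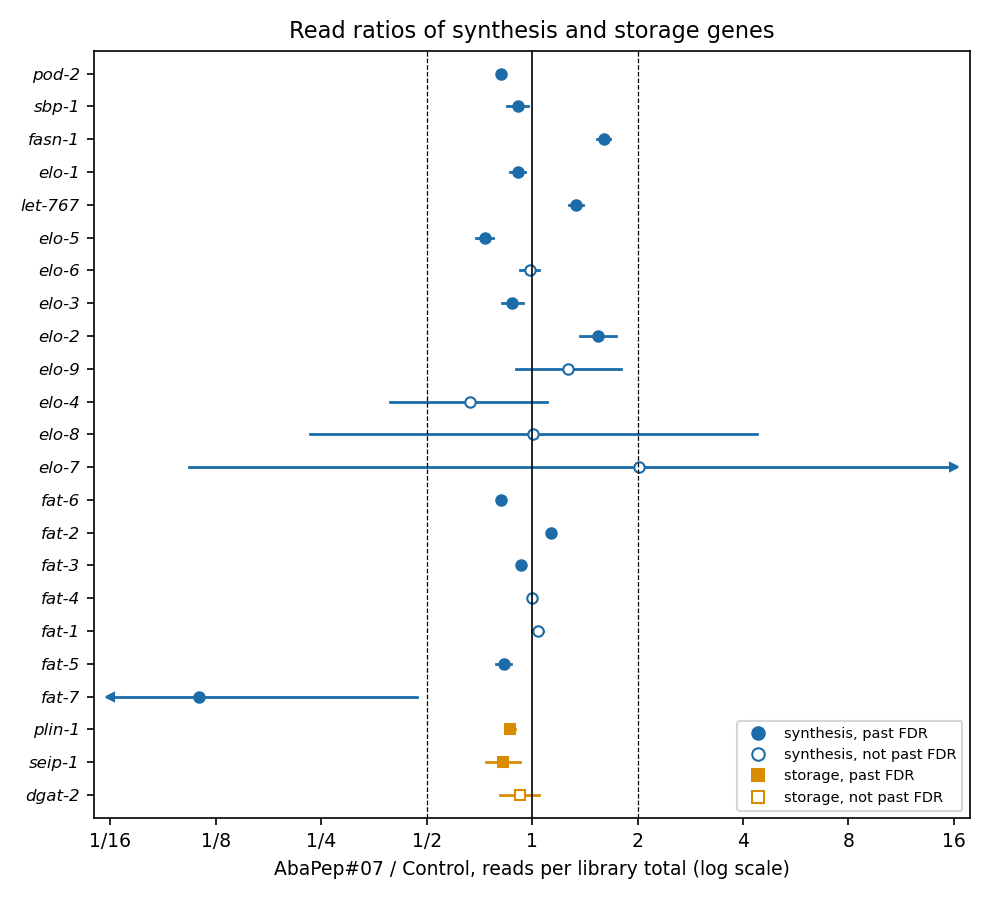
Ratio of reads per library total, AbaPep#07 over Control (horizontal axis, log scale), of the 20 synthesis and 3 storage genes, 1 per line, with exact 95% counting intervals. Filled symbols passed the FDR, open symbols did not, and arrows mark intervals that leave the axis. *fasn-1*, *elo-2* and *let-767* lie to the right of 1, at 1.60, 1.54 and 1.34, and *fat-7* alone lies left of 0.5.

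Storage genes were all at ratios below 1, and 2 of the 3 passed the FDR. *plin-1* (chromosome I, 7057192 to 7059344) encodes perilipin, which coats lipid droplets, and had 7286 reads and 217 TPM in AbaPep#07 against 8509 reads and 247 TPM in Control, a ratio of 0.864 (0.837 to 0.891). *seip-1* (chromosome V, 6051377 to 6053238), the gene of seipin, which acts where droplets bud from the endoplasmic reticulum, had 569 and 695 reads (0.826, 0.738 to 0.924). *dgat-2*, whose product adds the last fatty acid to triglyceride, had 455 reads in AbaPep#07 and 498 in Control, a ratio of 0.922 (0.810 to 1.05) that counting error covers. The median log2 FPKM ratio was -0.25 over the 3 storage genes, -0.13 over the 18 synthesis genes with at least 20 reads, 0.03 over the 7 binding genes with that many reads, and -0.03 over all genes with at least 20 reads.

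The droplet lipase genes and their cofactor all passed the FDR, with 1 higher and 2 lower. *atgl-1* (chromosome III, 6415772 to 6419459), the homologue of adipose triglyceride lipase, had 2381 reads in AbaPep#07 and 2158 in Control (1.11, 1.05 to 1.18). Its activator gene *lid-1*, a homologue of CGI-58, was lower, with 1026 and 1176 reads (0.880, 0.809 to 0.958), and so was *hosl-1*, the homologue of hormone-sensitive lipase, with 701 and 881 reads (0.803, 0.726 to 0.887). The ratio of *atgl-1* was 1.39 times that of *hosl-1* (1.23 to 1.56).

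Of the lysosomal lipase family, *lipl-1* differed most among the abundant members. It lies on chromosome V from 12919986 to 12921692 and had 3425 reads and 141 TPM in AbaPep#07, against 1976 reads and 78.3 TPM in Control. The read ratio was 1.75 (1.65 to 1.85), the highest of the 30 genes with at least 1000 reads. *lipl-7* was higher as well, with 726 and 608 reads (1.205, 1.08 to 1.34). *lipl-3*, which like *lipl-1* is known to be induced by fasting, went the other way, with 574 reads and 22.3 TPM in AbaPep#07 against 778 reads and 29.0 TPM in Control (0.744, 0.667 to 0.830). The ratio of *lipl-1* was 2.35 times that of *lipl-3*, with an interval of 2.08 to 2.66, for a pair chosen with these values known. The most abundant members had ratios nearer to 1. *lipl-5* was at 315 TPM in AbaPep#07 and 349 TPM in Control (0.866, 0.839 to 0.895), and *lipl-2* at 329 and 307 TPM with a ratio of 1.04 (1.003 to 1.07) that did not pass the FDR. The family sum was 842 TPM in AbaPep#07 and 793 TPM in Control, and the share of *lipl-1* in it was 16.8% in AbaPep#07 and 9.87% in Control. *lipl-4*, a lipase known for its part in life span when raised in the intestine, had 41 reads in AbaPep#07 and 57 in Control, a ratio of 0.726 (0.474 to 1.10). *lipl-6* had 56 and 62 reads and *lipl-8* 8 and 2, and neither passed the FDR.

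The *lips* and *fil* genes, of which all 16 carry the Lipase EstA/Esterase EstB annotation in the deposited table, were far less abundant. Their levels ran from 0 to 11.5 TPM in AbaPep#07 and from 0.04 to 13.6 TPM in Control, and 12 of the 16 had at least 20 reads. *lips-15* was the highest, with 565 reads in AbaPep#07 and 701 in Control (0.813, 0.726 to 0.910). *lips-10* had 150 and 108 reads (1.40, 1.09 to 1.81). *lips-5* (chromosome IV, 11768621 to 11773742) had 65 and 33 reads, a ratio of 1.99 by reads (1.29 to 3.12) and 1.92 by FPKM, just under the 2-fold threshold. *lips-17* (chromosome II, 7608253 to 7611005) had 86 and 56 reads (1.55, 1.09 to 2.21). On the lower side, *lips-3* (chromosome III, 4616529 to 4618893) had 19 reads in AbaPep#07 and 47 in Control, a ratio of 0.408 (0.226 to 0.708). Its exons share 93 bases with *pfas-1* on the other strand, which had 2483 reads in AbaPep#07 and 2228 in Control. *lips-6* (chromosome IV, 12014130 to 12015686) had 1 read in AbaPep#07 and 9 in Control, a ratio of 0.112 (0.00256 to 0.809), and its call rests on 10 reads. The fasting-induced lipase genes *fil-1* and *fil-2* had 171 and 44 reads in AbaPep#07, against 141 and 28 in Control, and their intervals of 0.973 to 1.54 and 0.965 to 2.64 include 1. *lips-11*, *lips-12* and *lips-13* are adjacent on chromosome II between 1108841 and 1118042, with 24, 4 and 29 reads in AbaPep#07 and 13, 10 and 25 in Control, and none passed the FDR. Nor did *lips-1*, *lips-2*, *lips-7*, *lips-8* and *lips-9*, which had 0 to 13 reads in AbaPep#07 and 1 to 19 in Control.

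Over the 22 breakdown genes with at least 20 reads, 12 had FPKM ratios above 1 and 10 below, with a median log2 FPKM ratio of 0.09. Among the 9 breakdown genes with at least 1000 reads, 4 had ratios above 1 and 5 below (median -0.20), although their summed reads had a ratio of 1.02, and among the 13 with 20 to 1000 reads 8 were above 1 and 5 below (median 0.28).

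**Figure D4:**
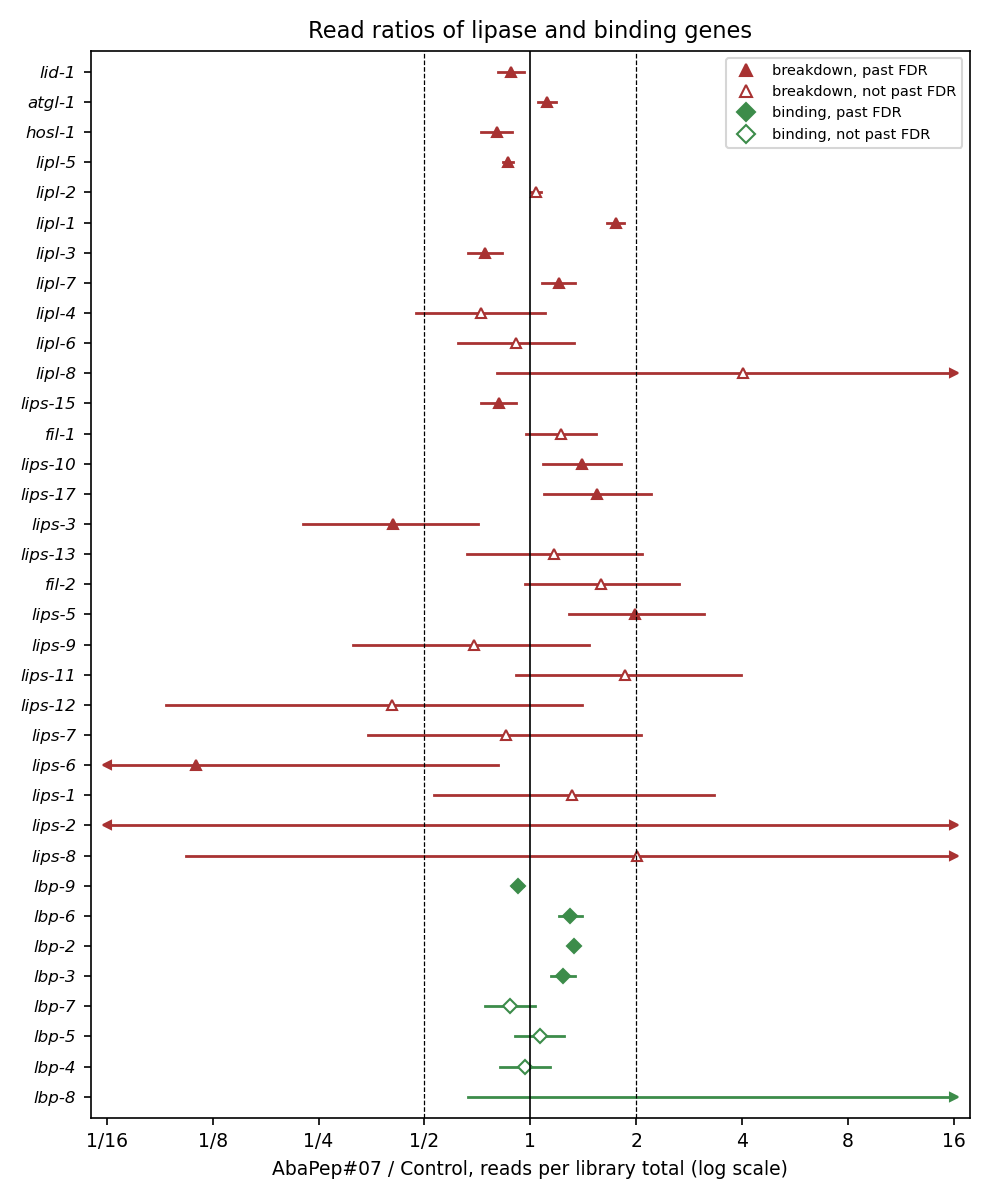
Ratio of reads per library total, AbaPep#07 over Control (horizontal axis, log scale), of the 27 breakdown and 8 binding genes, 1 per line, with exact 95% counting intervals. Filled symbols passed the FDR, open symbols did not, arrows mark intervals that leave the axis, and a gene with 0 reads in 1 library has an interval without a symbol. *lipl-1* at 1.75 and *lipl-3* at 0.744 have intervals on opposite sides of 1, and genes with few reads have the widest intervals.

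Fatty acid binding protein genes were abundant. *lbp-9* (chromosome V, 2068449 to 2069142) led by level, at 966 TPM in AbaPep#07 and 1034 TPM in Control, with 5801 and 6346 reads and a ratio of 0.922 (0.890 to 0.956). *lbp-6* (chromosome I, 6728296 to 6729376) was higher, at 291 TPM in AbaPep#07 and 224 TPM in Control (1.30, 1.21 to 1.40), while its neighbour *lbp-5*, 1891 bases away, had 325 and 308 reads (1.06, 0.908 to 1.25). The ratio of *lbp-6* was 1.22 times that of *lbp-5* (1.02 to 1.46). *lbp-2* (chromosome X, 3260610 to 3261470) was higher with 12144 reads in AbaPep#07 and 9196 in Control (1.33, 1.30 to 1.37), and so was the adjacent *lbp-3*, with 1473 and 1200 reads, a ratio of 1.24 by reads (1.15 to 1.34) but 1.11 by FPKM. The read counts of *lbp-3* are not whole numbers in either library. *lbp-4* and *lbp-7*, with 290 and 284 reads in AbaPep#07 against 302 and 327 in Control, did not pass the FDR. *lbp-8*, which carries a lipid signal from lysosome to nucleus downstream of LIPL-4, had 4 reads in AbaPep#07 and 0 in Control, a count that allows up to 3 reads, so that no difference was detectable at this depth.

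The level of *lbp-2* relative to the other binding genes depends on the length behind its FPKM. Reads divided by FPKM and library total give the effective length that the authors' estimate used. For *lbp-2* it was 1992 bases in AbaPep#07 and 1982 bases in Control, whereas its longest transcript in the Ensembl annotation of WBcel235 has 759 bases. Among the 36 of these genes with at least 200 reads, it was the only one above its longest transcript, and 7.46% of 9274 genes compared were. The median of implied minus annotated length in Control was -294 bases over the 36 genes and -295 bases over all genes compared. By reads *lbp-2* held 55.4% of the binding family in AbaPep#07 and 48.6% in Control, but by TPM 14.9% and 11.3%. Its ratio between the libraries was alike by reads (1.33) and by FPKM (1.33), the implied length being nearly the same in both. The family total had a ratio of 1.17 by reads (1.15 to 1.19) and 1.05 by TPM.

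**Figure D5:**
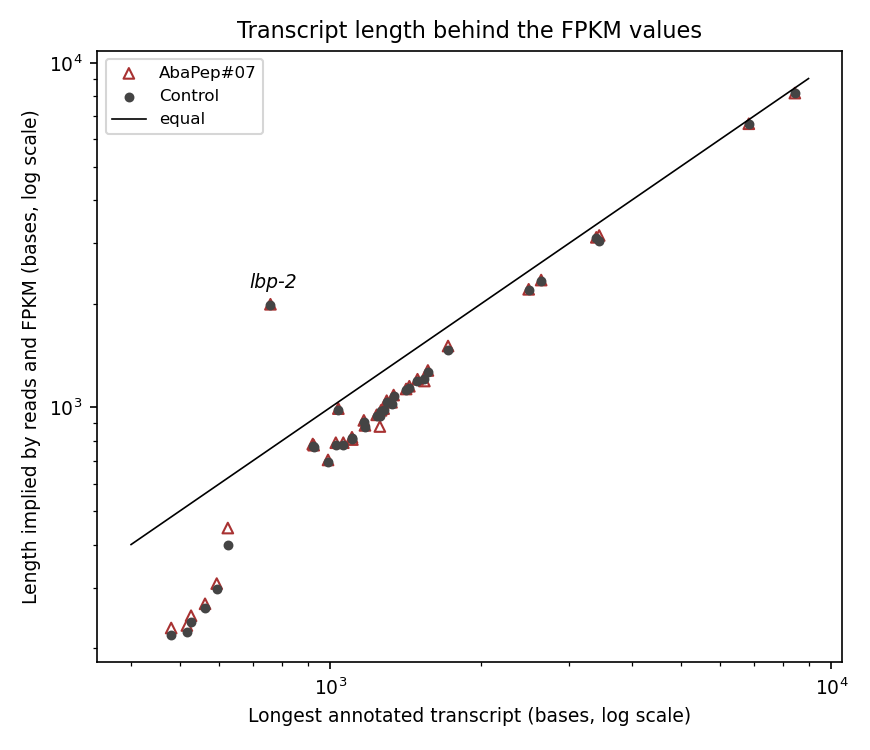
Length implied by reads and FPKM (vertical axis, bases, log scale) against the longest annotated transcript (horizontal axis, bases, log scale) for the 36 genes with at least 200 reads, with AbaPep#07 as open triangles and Control as filled points. The line marks equal lengths. *lbp-2* lies above it at 1992 and 1982 bases, and the other genes lie below it.

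Of a list of 28 other genes of the pathway, 11 were higher and 7 lower with AbaPep#07 by the FDR, and 0 passed the 2-fold threshold, where 25.5% and 3.53% of all genes passed. The list is abundant, and of its 26 genes with at least 1000 reads 17 passed the FDR, against 48.4% of all genes of that depth. *pcyt-1*, whose product catalyses the rate-limiting step of phosphatidylcholine synthesis, was the only one past 1.5-fold, with 1223 reads in AbaPep#07 and 791 in Control (1.56, 1.43 to 1.71). Of 4 genes of precursor supply and elongation 3 were higher and 1 lower, of 12 genes of glycerolipid and phosphatidylcholine assembly 5 were higher and 3 lower, and of 3 droplet protein genes 2 were higher. Among 9 regulators, 1 was higher and 3 were lower. The higher one was the nuclear receptor gene *nhr-62*, with 587 reads in AbaPep#07 and 425 in Control (1.39, 1.23 to 1.58). Of the lower ones, *nhr-66*, another nuclear receptor gene, had 1297 and 1489 reads (0.879, 0.815 to 0.947). All regulators in this paragraph were named after their values were seen. *nhr-80*, a nuclear receptor known to act on the Δ9 desaturase genes, had 464 and 602 reads (0.778, 0.687 to 0.879). *mxl-3*, a repressor of lysosomal lipase genes in fed nematodes, had 2585 and 3428 reads (0.761, 0.723 to 0.801). *hlh-30*, the activator of these lipase genes in fasting, had 2908 and 2966 reads (0.989, 0.939 to 1.04). *nhr-49*, an activator of *fat-7*, had 3202 and 3084 reads (1.05, 0.997 to 1.10). Neither *hlh-30* nor *nhr-49* passed the FDR. The other regulators of the list, *mdt-15* (0.979, 0.939 to 1.02), *nhr-13* (1.13, 0.907 to 1.42) and *daf-12* (1.08, 0.982 to 1.19), did not pass it either. Whether any regulator acted on the genes above was not tested.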

How the data were processed

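RNA of whole nematodes was measured in 1 AbaPep#07 and 1 Control library. The authors cleaned the reads, aligned them with Bowtie2 (2.2.5) to the coding genes of WBcel235 and estimated expression with RSEM (1.2.12). The deposited estimated counts of reads per gene are not normalized. The deposited FPKM and TPM values were made by the authors and rounded. The deposited log2 ratio, FDR and p-value columns are the authors' own comparison and were not used. Reads are not molecules, since no molecular identifiers were used.

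The PossionDis test was computed on the estimated counts rounded down to whole reads, with Benjamini-Hochberg adjustment over 18510 genes. The form of its tails is not given in the methods and was taken from an earlier analysis of these data. FPKM ratios used 0.01 for an FPKM of 0, and medians used genes with at least 20 reads. Neither DESeq2 nor edgeR's quasi-likelihood test could be fitted with 1 library per group. Their scaling factors, and the exact test of edgeR at a coefficient of variation set to 0.1, 0.2 or 0.4, served as alternatives, beside other units, minimums and adjustments. Intervals are Clopper-Pearson at 95%. The code of the test and of the intervals was tested on simulated Poisson counts, which say nothing of the error between cultures. Gene positions are from RefSeq for WBcel235 and transcript lengths from Ensembl release 115 of the same build. Python 3.11.15, scipy 1.17.1, R 4.3.3, edgeR 4.0.16 and DESeq2 1.42.0 were used.

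The genes, lists and tests were chosen with earlier results of these data known. The minimum of 1000 reads, the distance of 15000 bases between neighbours, the 17 gene pairs and the length check were chosen after values had been seen. Values in full were set for genes past FDR and fold, for those past FDR and 1.5-fold and for the most abundant of each role, and the remaining genes named were chosen after their values were seen. Gene sequences were not used here.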

Additional observations from a re-analysis of the deposited data

How the results depend on the processing

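With 1 library per group no library could be left out, and no direction could be checked between cultures. No paired analysis was possible because each group holds 1 library. Of 3 genes past FDR and 2-fold, 0 were called with 1 FPKM added to both values and 0 with Bonferroni adjustment. By TPM 4 were called, with *lips-5* gained as higher, and with a minimum of 20 reads 2, with *lips-6* lost. With edgeR's exact test, an assumed coefficient of variation of 0.1 left 1, and 0.2 and 0.4 left 0. Of 32 genes past the FDR alone, Bonferroni adjustment left 16 (8 higher, 8 lower), a coefficient of variation of 0.1 left 3 (*fasn-1* and *lipl-1* higher, *fat-7* lower), and 0.2 and 0.4 left 0, where 90 and 7 of all genes were called. The median log2 ratio of synthesis genes (-0.13) was -0.070 by TPM and -0.080 with a minimum of 100 reads or with no minimum. That of storage genes (-0.25) was -0.20 with TMM scaling and -0.19 by TPM, and that of breakdown genes (0.09) was 0.15 by TPM and 0.037 with a minimum of 100 reads or with no minimum. The median over all genes with at least 20 reads moved too, from -0.034 by FPKM to 0.025 by TPM, so the shift by TPM was not particular to these roles. The log2 ratio of summed levels was, by FPKM and by reads in place of TPM, -0.094 and -0.098 for synthesis (-0.03 by TPM), 0.021 and 0.030 for breakdown (0.08 by TPM) and 0.013 and 0.23 for binding (0.07 by TPM), and for storage (-0.19 by TPM) it was -0.25 by FPKM. Under TMM scaling *lips-6* (-3.14) and *sbp-1* (-0.12) no longer passed the FDR and *lipl-2* was gained as higher, while DESeq2 scaling gained and lost 0. None of the 32 genes changed direction by reads, by TPM, under either scaling or with 1 FPKM added. Changing the unit does not change the FDR. Counts limit the genes with few reads.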
